A study of Arabidopsis thaliana with 2 samples.

Results

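The genes described here are cytochrome P450 genes, in axillary buds of 2 Arabidopsis thaliana lines. They were chosen by a rule on gene names that uses no measured value, as the probe sets that the platform annotation assigns to exactly 1 gene and whose symbol has the P450 form of CYP followed by a family number, a subfamily letter and a gene number. Cyclophilins, which carry similar symbols, do not have this form. The rule found 23 probe sets for 23 genes, out of 13356 genes with a probe set of their own. The TAIR10.1 gene table holds 236 symbols of this form in 40 families. The 23 genes came from 5 of these families, and P450 genes without a probe set of their own in the annotation are not analysed here. The annotation did not list 8730 of the 22746 probe sets used. A gene without a probe set of its own in it may therefore still be measured on the array. Of the 23, 19 were CYP71B genes, out of 36 CYP71B symbols in the gene table, so the values below are largely those of 1 subfamily.

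Both lines are in the Col-0 background and carry mutations induced with ethyl methanesulfonate. The axr3-1 line has a gain-of-function allele of AXR3 (IAA17), which represses genes that respond to auxin, and the axr1-12 line a loss-of-function allele of AXR1, which acts in the RUB conjugation pathway that auxin signalling needs. The buds of both lines are described as about 2 mm long, and the plants were kept on compost at 21 °C in days of 16 h light and 8 h dark, following cold treatment for 3 days. The title frames the series as one of dormant against active axillary meristems, but the sources used here do not say which line stands for which. RNA of each line was hybridised to 1 array, so no difference below has a replicate check or a p-value, and precision is limited by the number of arrays. In whole buds, fewer cells of a type and less RNA per cell cannot be told apart.

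Cytochrome P450s are haem enzymes, most of which insert 1 atom of oxygen into a substrate, and in plants most sit in the membrane of the endoplasmic reticulum and draw electrons from a P450 reductase. They act in the synthesis or breakdown of most plant hormones, of sterols, phenylpropanoids and cutin, and in the making of defence compounds such as glucosinolates and camalexin. The plant families fall into clans, and the large clan 71 holds most enzymes of specialised metabolism, family 71 included. CYP71B genes often lie next to each other in the genome as tandem copies. The best-known gene of the subfamily, CYP71B15 (PAD3), makes the phytoalexin camalexin and is not among the 23.

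Signals are MAS5 units on a linear scale. A gene passed the filter when the mean of its log2 signals reached the median of all probe sets, which corresponds to 51.4 units. Signals up to 29.4 units, the highest of 27 dim control probe sets for bacterial genes, were read as not above background. Dim controls were those below the median signal on both arrays, so this level depends on that choice. Signals of the axr1-12 array were centred on the median ratio of the arrays before log2 differences were taken, a shift of 0.02 on the log2 scale, so a fold differs by 1.48% from the ratio of the signals printed beside it.

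Of the 23 P450 genes, 5 passed the filter, or 21.7%, against 44.7% of all genes with a probe set of their own. All 5 were CYP71B genes, and they were also the only members above background on both arrays. A further 3 genes were above background on the axr1-12 array only, and 15 were above background on neither. The shares of all genes in these classes are not given here, so these counts are no finding about P450 genes. One of the 5, CYP71B22, was 2.02-fold higher in axr1-12, and the other 4 were 1.13- to 1.32-fold lower.

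**Figure D1:**
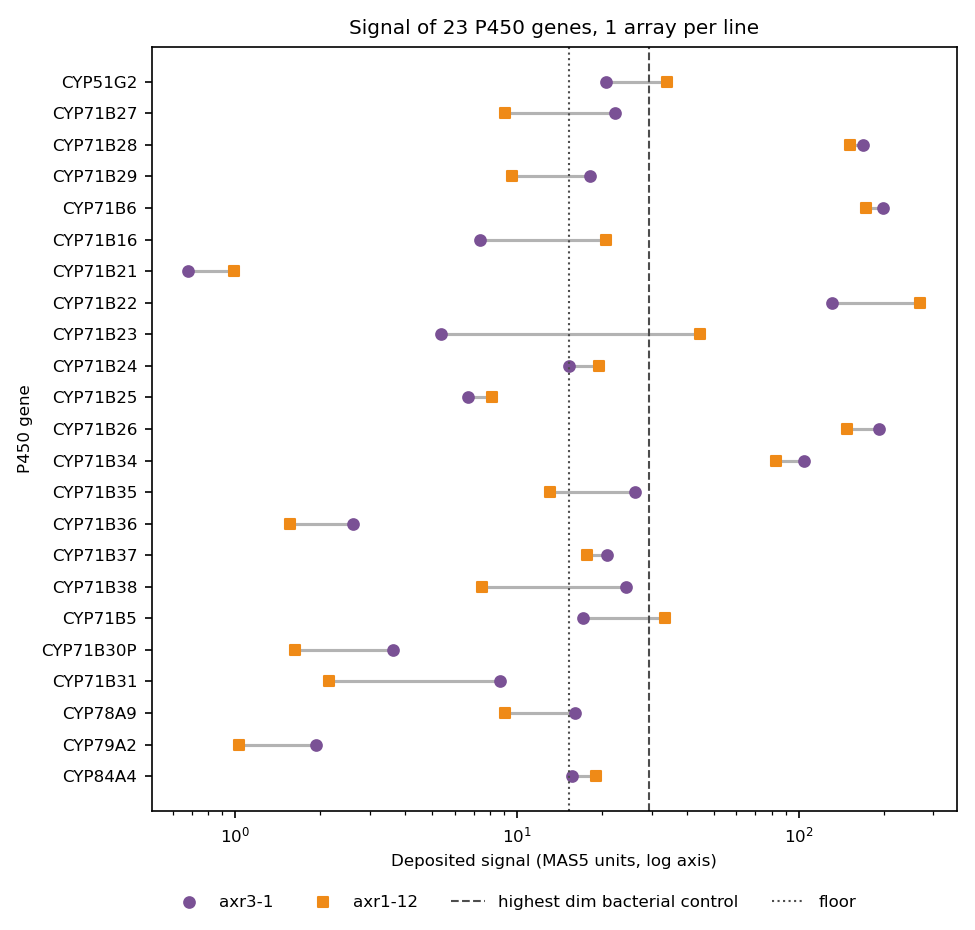
Deposited MAS5 signal (log axis) of the 23 P450 genes on the axr3-1 array (circles) and the axr1-12 array (squares), 1 array per line. The dashed line is the highest dim bacterial control at 29.4 units and the dotted line the floor at 15.3 units; the 5 genes to the right of the dashed line on both arrays are CYP71B28, CYP71B6, CYP71B22, CYP71B26 and CYP71B34.

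CYP71B22 (AT3G26200, chromosome 3) had 132 units in axr3-1 and 269.8 units in axr1-12. Its log2 difference of 1.02 lay just past the 2-fold threshold. At least 2-fold higher signal in axr1-12 was seen for 1 of the 5 P450 genes past the filter, and for 2.28% of all 5975 genes past it. A count of 1 among 5 is too small to be read against that share. CYP71B22 was below 2-fold after quantile and loess scaling, at log2 differences of 0.9926 and 0.9937.

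CYP71B6 (AT2G24180, chromosome 2), an enzyme that acts on indole-3-acetonitrile in the formation of indole-3-carboxylic acid derivatives, had 199 units in axr3-1 and 173 in axr1-12. It was 1.17-fold lower in axr1-12, a log2 difference of -0.22. CYP71B28 (AT1G13090, chromosome 1) had 169 units in axr3-1 and 152 in axr1-12, a log2 difference of -0.17. These were the smallest differences among the 5 genes.

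CYP71B26 (AT3G26290, chromosome 3) had 192 units in axr3-1 and 148 in axr1-12, 1.32-fold lower with a log2 difference of -0.40. CYP71B34 (AT3G26300, chromosome 3) had 105 units in axr3-1 and 82.7 in axr1-12, 1.28-fold lower with a log2 difference of -0.36. The only yardstick of error in these data is the root mean square disagreement of 0.37 between the log2 differences of 32 genes that had 2 probe sets past the filter, and it covers probes but not plants or hybridisations. CYP71B28, CYP71B6 and CYP71B34 lay within it, CYP71B26 lay just beyond it, and CYP71B22 exceeded it. The yardstick holds the error of 2 probe sets, whereas each P450 difference holds that of 1, so this sorting is only rough.

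The median log2 difference of the 5 P450 genes was -0.22, and that of all 5975 genes past the filter was -0.02. A lower signal in axr1-12 of any size was found for 4 of the 5, against 51.6% of all genes past the filter. At least 2-fold lower signal was found for 0 of the 5, against 3.16%. Counts among 5 genes are too small to be read against these shares. Differences of less than 1.5-fold made up 80.3% of all genes past the filter, and the 4 lower P450 genes were in that range.

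**Figure D2:**
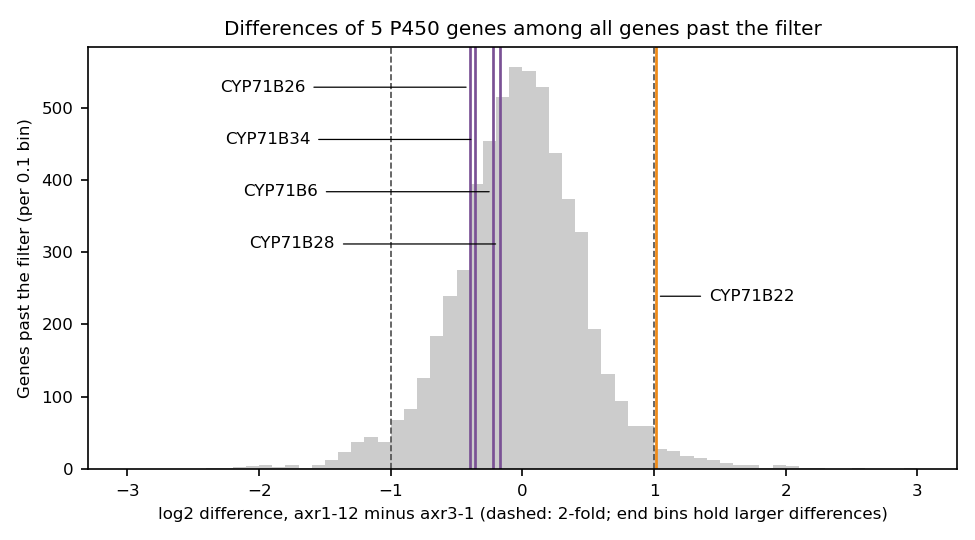
Number of genes past the filter by log2 difference, axr1-12 minus axr3-1, in bins of 0.1, with the 5 P450 genes as vertical lines and the 2-fold thresholds dashed. CYP71B26, CYP71B34, CYP71B6 and CYP71B28 lie between -0.40 and -0.17 in the body of the distribution, and CYP71B22 lies at 1.02.

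Among the 3 genes above background in axr1-12 only, CYP71B23 (AT3G26210, chromosome 3) had 5.35 units in axr3-1, below the floor, and 44.5 units in axr1-12, which against the background level is at least 1.49-fold higher. CYP71B5 (AT3G53280, chromosome 3) had 17.1 units in axr3-1 and 33.6 in axr1-12, at least 1.13-fold higher. CYP51G2 (AT2G17330, chromosome 2) had 20.7 and 34.0 units, at least 1.14-fold higher. It is annotated as a transcribed pseudogene and is named as a copy of CYP51G1, the sterol 14-demethylase gene. The direction of these 3 genes follows from how they were grouped and is no finding, and CYP71B5 and CYP51G2 were close to the background level in axr1-12 too.

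By family, CYP71 had 19 genes here, of which 5 were above background on both arrays, 2 on the axr1-12 array only and 12 on neither. The shares of all genes in these classes are not given here, so these counts are no finding about the family. The 5 genes of family 71 past the filter had log2 differences from -0.40 to 1.02. Families 51, 78, 79 and 84 had 1 gene each and 0 past the filter, so families could not be set against each other.

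Family 78 was represented by CYP78A9 (AT3G61880), which promotes growth of the ovule integuments and the fruit. It had 16.0 units in axr3-1 and 9.03 in axr1-12. Family 79, whose enzymes turn amino acids into aldoximes, was represented by CYP79A2 (AT5G05260), which uses phenylalanine for benzylglucosinolate. Its signals were 1.94 units in axr3-1 and 1.03 in axr1-12. Family 84 was represented by CYP84A4 (AT5G04330), needed for the phenylpropanoid-derived arabidopyrones, with 15.7 units in axr3-1 and 19.0 in axr1-12. None of these 3 genes was above background on either array, and no fold is given for them.

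The remaining 12 genes not above background were CYP71B genes, among them CYP71B31 (AT3G53300), a linalool-oxidising enzyme of flowers, at 8.71 units in axr3-1 and 2.15 in axr1-12. CYP71B35 had the highest of their signals, 26.2 units in axr3-1, with 13.1 in axr1-12. CYP71B38 had 24.4 units in axr3-1 and 7.51 in axr1-12, and CYP71B27, annotated as a transcribed pseudogene, 22.3 and 9.07. CYP71B16 had 7.41 units in axr3-1 and 20.7 in axr1-12. CYP71B37 had 20.8 and 17.8 units, CYP71B24 15.3 and 19.6, and CYP71B29 18.2 and 9.62. The rest were under 10 units on both arrays, namely CYP71B21, CYP71B25, CYP71B36 and CYP71B30P, the last a pseudogene by its name but protein-coding in the gene table, with CYP71B21 lowest at 0.681 and 0.986 units. Signals in this range have no order between the arrays, since they are not above background on either. Of all 23 genes, 6 were at the floor on both arrays and a further 7 on 1 array. The shares of all genes at the floor are not given here, so these counts are no finding either.

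The genome position of the genes was not used by the rule. In gene order, 17 of the 23 lay in 3 runs of neighbouring P450 genes, a grouping that allowed up to 7 other genes between members and was set after the gene order had been seen. The run on chromosome 1 went from CYP71B27 to CYP71B29 and spanned 4 genes, all P450s, of which CYP71B27, CYP71B28 and CYP71B29 were among the 23. Only CYP71B28 was above background there, at 169 units in axr3-1 and 152 in axr1-12. A short run on chromosome 3 had CYP71B5, CYP71B30P and CYP71B31, of which 0 passed the filter.

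The long run on chromosome 3 went from CYP71B16 to CYP71B37 and spanned 24 genes, of which 18 were P450 genes and 11 were among the 23. A row of 6 genes that are not P450s divides it. On the side of CYP71B16, CYP71B22 was the 1 member above background on both arrays, and it was higher in axr1-12, as given above. Its direct neighbour CYP71B23 was above background in axr1-12 only, so its direction adds nothing to that of CYP71B22. A probe set shared by the neighbouring genes CYP71B19 and CYP71B20, which for that reason is not among the 23, was also higher there, at 143 units in axr3-1 and 216 in axr1-12, or 1.48-fold. On the side of CYP71B37, CYP71B26 and CYP71B34, separated by the pseudogene CYP71B33, were both lower in axr1-12. The grouping by side was noticed in the values, was not tested, and holds 3 genes and 1 shared probe set above background on both arrays, of which the 2 lower genes differed by no more than 1.32-fold. How far probes of these related copies respond to each other's RNA was not tested.

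**Figure D3:**
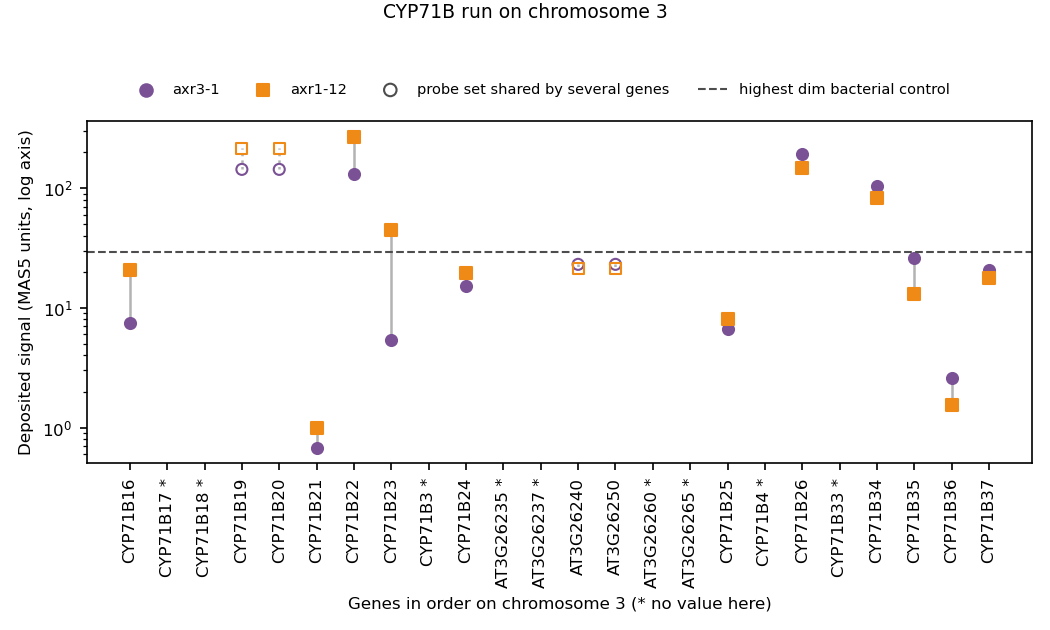
Deposited MAS5 signal (log axis) of the genes from CYP71B16 to CYP71B37 in their order on chromosome 3, for axr3-1 (circles) and axr1-12 (squares), with the background level dashed at 29.4 units. Open symbols are probe sets shared by several genes and asterisks mark genes with no value here. CYP71B22 is higher in axr1-12, and CYP71B26 and CYP71B34 are slightly lower. CYP71B23 is above the background level in axr1-12 only.

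P450 genes of known pathways were looked up through 13 lists of 84 gene names, which cover brassinosteroids, gibberellins, abscisic acid, strigolactones, cytokinins, jasmonate, glucosinolates, phenylpropanoids, cutin and wax, sterols, carotenoids, triterpenes and organ growth. The gene table held 82 of these names, and 3 had a probe set of their own in the annotation. These were CYP79A2, CYP84A4 and CYP78A9, described above. The P450 genes of hormone metabolism on these lists, MAX1 (CYP711A1) of the branching hormone strigolactone included, are therefore not analysed here. The same holds for the list of electron donors, P450 reductases and cytochromes b5, of which 0 of 11 had a probe set of their own in the annotation.

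A further 126 names were of genes that act in the same pathways without being P450s. Of these, 6 had a probe set of their own in the annotation and 4 passed the filter. None of the 4 differed 2-fold, against 5.44% of all genes past the filter, and 4 genes are too few to be read against that share. HCT, the transferase that supplies the substrate of the P450 CYP98A3 in lignin synthesis, had 449 units in axr3-1 and 315 in axr1-12, 1.45-fold lower. UGT74B1, a glucosyltransferase of the glucosinolate core pathway that follows the CYP79 and CYP83 steps, had 82.7 and 63.2 units, 1.33-fold lower. WSD1, a wax ester synthase, had 153 units in axr3-1 and 211 in axr1-12, 1.36-fold higher, and LYC, the lycopene beta-cyclase, 232 and 245 units, a log2 difference of 0.06.

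The other 2 of these genes did not pass the filter and had lower signals in axr1-12. DFR, the dihydroflavonol reductase of anthocyanin synthesis, had 81.3 units in axr3-1 and 29.8 in axr1-12, 2.77-fold lower, with the axr1-12 signal barely above background. BCAT4, an aminotransferase that opens the chain elongation of methionine for glucosinolates, had 69.0 units in axr3-1 and 23.0 in axr1-12, at least 2.38-fold lower. The shares of 2-fold differences given above cover only genes past the filter, so they do not apply to DFR and BCAT4.

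The identity of the tissue could be checked only in part. The 40 marker genes were those of shoot meristems and buds, roots, anthers and pollen, and secondary walls. Of these, 6 had a probe set of their own in the annotation. LAS, needed to form axillary meristems, had 69.8 units in axr3-1 and 61.8 in axr1-12, whereas the stem cell gene CLV3 was not above background, at 7.29 and 2.74 units. The root hair gene EXPA7 was not above background either, at 24.4 and 3.64 units. The anther gene AMS had 46.9 and 66.5 units beside 3.85 and 3.22 for SPL, and the secondary wall gene IRX10 had 105 and 90.1 units. The part of other tissues in the P450 signals was not tested.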

How the data were processed

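The authors deposited 1 intensity per probe set and array on a linear scale, and the submitters' processing notes name MAS5 for this step, without a version. With the outer 2% at each end left out, the deposited intensities averaged 100 on both arrays, so the arrays share a scale. Of 22810 probe sets, 64 controls of the manufacturer were set aside. Genes were named through the platform's GEO annotation, in which 13513 probe sets had 1 gene, 503 had several and 8730 were not listed. The symbols of all 23 P450 genes were the same in the TAIR10.1 table, which was used only for names, gene types, chromosomes and gene order.

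Log2 differences (axr1-12 minus axr3-1) were computed with numpy 2.4.6 and pandas 2.3.3 after centring on the median ratio of probe sets at or above the median signal. Signals below the 25th percentile, 15.3 units, were set to that floor, and 11373 probe sets passed the filter at the median. A gene not above the bacterial controls on 1 array got a bound against them. Loess scaling used statsmodels 0.14.6. Centring and log2 differences were tested on simulated data in which only bright probe sets were given known folds. Signals near the floor and the bounds against the controls were not covered by that test.

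Genes named were members at least 2-fold different, those with the largest differences in each direction and in each family, members of the lists, and pairs of neighbouring members that both passed the filter; the others were named to account for every member. The members and lists were chosen with earlier results of these data known. With 1 array per line no test was possible.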

Additional observations from a re-analysis of the deposited data

How the results depend on the processing

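The count of P450 genes at least 2-fold higher in axr1-12, 1 in the values above, rests on CYP71B22 alone. It was 0 under quantile scaling, 0 under loess scaling, 0 with a pseudocount of 16 in place of the floor and 0 at a 3-fold threshold. It was 2 without a filter, where CYP71B23 joined from below the background level on the axr3-1 array. CYP71B22 itself ranged from 1.91- to 2.05-fold over 5 alternatives of scaling and floor, so the count follows the place of the threshold. The count at least 2-fold lower was 0 in all 11 alternatives run. The median log2 difference, -0.22, ranged from -0.26 to 0.0 over 9 alternatives, with 0.0 reached without a filter, where most of the 23 genes are near or at the floor. Of 25 alternative values of the 5 genes past the filter, 0 changed sign and 0 moved by more than 0.37. Removing the floor could not move them, since these genes lay above it on both arrays. All alternatives use the same arrays, so they do not measure error between arrays. A filter at the 67th percentile left 4 genes. The use of plain _at probe sets and of the mean over probe sets changed nothing, since each gene had 1 plain probe set. No paired analysis was possible because each line has 1 array. Signals at or below 29.4 units on both arrays, those of 15 genes, cannot show a difference in either direction.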

Other observations

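A few P450 probe sets fell outside the naming rule. CYP718, a P450 whose symbol has no subfamily letter, had 2.06 units in axr3-1 and 3.02 in axr1-12. A probe set shared by CYP79C2 and AT1G58265 had 9.08 and 17.0 units. Neither was above background on either array. In the gene table, 15 genes had a P450 name among their synonyms under another symbol. Of these, 0 had a probe set of their own in the annotation.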
